A study of Mus musculus with 24 samples.

Results

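A set of 10 genes that serve the housekeeping work of astrocytes were followed in hippocampal CA1 tissue during the first days after status epilepticus (SE). The set was Slc1a2, Slc1a3, Glul, Aqp4, Kcnj10, Atp1b2, Gja1, Gjb6, Aldh1l1 and Aldoc, chosen by symbol from the 18647 genes of the count table, and all 10 were present. The 24 libraries came from 3 non-SE control groups (Ctr) at 12, 36 and 72 h, from SE groups at those same times, and from further SE groups at 6 and 24 h, each of the 8 groups with 3 libraries. All mice were adult C57Bl/6N animals of at least 60 days, and all received scopolamine methyl nitrate (1 mg/kg) and diazepam (4 mg/kg). The SE groups were given pilocarpine hydrochloride (335 mg/kg), a muscarinic agonist that triggers sustained convulsions, and mice without SE after the drug were left out, whereas the Ctr groups were given saline. CA1 was dissected from 400 µm slices and its polyadenylated RNA was sequenced as a whole, so fewer astrocytes and less RNA per astrocyte cannot be told apart. Sources used here do not say whether each library was 1 animal, so the p-values measure the spread between these libraries.

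Astrocytes take up glutamate released at synapses, turn it into glutamine, buffer the potassium that firing neurons release and pass water across their endfeet at blood vessels. They are joined to each other by gap junctions, which spread ions and metabolites through the network. After seizures astrocytes are known to become reactive, a state marked by filament proteins such as Gfap. In the set followed here, Slc1a2 and Slc1a3 encode the glutamate transporters GLT-1 and GLAST, and Glul encodes glutamine synthetase. Aqp4 encodes the water channel of the endfeet, Kcnj10 an inwardly rectifying potassium channel, and Atp1b2 a beta subunit of the sodium pump. Gja1 and Gjb6 encode connexins, the subunits of gap junctions. Aldh1l1, a folate-metabolizing dehydrogenase, and Aldoc, a glycolytic aldolase, are used as astrocyte markers.

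Depth was between 2663936 and 30133731 counts per library (median 13521590), with the shallowest library in the Ctr 72 h group. Even so, the lowest count of any of the 10 genes in any library was 156, so none was near the limit of detection. In the 9 Ctr libraries, level per length of exon, in CPM (counts scaled to the normalized total of the library) per kilobase, was highest for Glul (405 ± 38.6, SD, n = 9). Aldoc (217 ± 17.7) and Slc1a2 (200 ± 21.6) followed, and their ranges overlapped. Atp1b2 (68.1 ± 9.17), Slc1a3 (53.8 ± 5.32) and Kcnj10 (35.8 ± 5.17) lay in the middle, and the ranges of Atp1b2 and Slc1a3 overlapped. Gja1 (21.5 ± 2.86), Gjb6 (18.5 ± 3.17) and Aqp4 (17.1 ± 3.33) were alike within their spread in this measure, and Aldh1l1 was lowest (6.83 ± 1.35). The length was that of all annotated exons of a gene merged, which can be longer than the transcripts present, so the order depends on it. Without regard to length, Gja1 averaged 264.8 CPM, Gjb6 72.6 CPM and Aqp4 112.3 CPM in the same libraries. In CPM without regard to length, Slc1a2 was the 9th most abundant of all genes in the Ctr libraries, Glul the 30th and Aldoc the 78th.

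In the mouse genome GRCm39, Glul (153775690 to 153785469) and Kcnj10 (172168765 to 172201652) are on chromosome 1, and Slc1a2 is on chromosome 2 (102488574 to 102621129). Aldh1l1 is on chromosome 6 (90463409 to 90577185), Gja1 on chromosome 10 (56253241 to 56278609), and Atp1b2 (69487651 to 69496851) and Aldoc (78213619 to 78218889) on chromosome 11. Gjb6 is on chromosome 14 (57360757 to 57371087) and Slc1a3 on chromosome 15 (8663604 to 8741595). Reads were counted without regard to strand, and 16.4% of the exon bases of Gjb6 and 6.1% of those of Aldh1l1 are shared with an antisense RNA (Gm32912 and Gm15756). For the other members no single antisense or overlapping gene shared more than 3.7%.

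The 250 bases before the start of transcription are shown for 4 genes whose time courses differed below: both glutamate transporters, Glul, which was low at 12 to 36 h, and Kcnj10, which was high at 36 and 72 h. The sequences are from RefSeq on GRCm38.p6, an older build than that of the counts, and are read 5′ to 3′ on the gene's strand, with capitals for every match to the searched motifs.
Slc1a2, chr2:102706188-102706437, plus strand: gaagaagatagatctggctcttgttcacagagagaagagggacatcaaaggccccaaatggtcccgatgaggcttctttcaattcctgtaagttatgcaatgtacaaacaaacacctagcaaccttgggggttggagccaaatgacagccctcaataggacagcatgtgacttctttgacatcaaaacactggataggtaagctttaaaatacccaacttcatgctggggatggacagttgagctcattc
Slc1a3, chr15:8710808-8711057, minus strand: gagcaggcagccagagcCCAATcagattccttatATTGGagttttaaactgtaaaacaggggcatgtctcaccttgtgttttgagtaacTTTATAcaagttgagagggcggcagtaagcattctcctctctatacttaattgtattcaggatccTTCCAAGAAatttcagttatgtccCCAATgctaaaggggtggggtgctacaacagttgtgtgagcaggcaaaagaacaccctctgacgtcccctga
Glul, chr1:153899679-153899928, plus strand: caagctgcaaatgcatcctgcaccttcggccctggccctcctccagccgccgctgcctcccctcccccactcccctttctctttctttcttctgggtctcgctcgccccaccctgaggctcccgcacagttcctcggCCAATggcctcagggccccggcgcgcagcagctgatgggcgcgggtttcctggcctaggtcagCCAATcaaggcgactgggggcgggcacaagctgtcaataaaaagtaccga
Kcnj10, chr1:172340960-172341209, plus strand: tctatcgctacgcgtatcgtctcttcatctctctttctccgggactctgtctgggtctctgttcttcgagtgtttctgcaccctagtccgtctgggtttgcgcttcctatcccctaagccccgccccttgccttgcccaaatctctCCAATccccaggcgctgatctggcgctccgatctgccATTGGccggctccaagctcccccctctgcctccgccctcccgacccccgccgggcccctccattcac
Entries were found for 8 of the 10 genes, 9 in all, since Aldoc has 2 starts. The letters CCAAT were searched on both strands, as were the core promoter element TATAAA, the motif of AP-1 factors TGANTCA, that of STAT factors TTCNNNGAA, that of CREB proteins TGACGTCA, a half-site of NFI factors TTGGCA and a core bound by SOX proteins ACAAAG, where N is any base. Read on the opposite strand, the first of these can share bases with the NFI half-site. CCAAT was present in Slc1a3 (3 matches), Glul, Kcnj10 and Aldh1l1 (2 matches each), that is in 4 of the 8 genes, against 33.8% of all 32851 promoters of the table. Of these, Glul and Slc1a3 were lower at 36 h after SE and Kcnj10 and Aldh1l1 higher, so both directions were present among the genes with a match. TTCNNNGAA was present in Slc1a3 and at the second start of Aldoc (7.02% of all promoters), TGANTCA in Gja1 alone (6.75%), TATAAA in Slc1a3 alone (12.4%) and TTGGCA at the first start of Aldoc alone (12.3%). No window held the CREB letters (1.55% of all promoters) or the SOX letters (16.5%), and the Slc1a2 window held none of these motifs.

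Differences were fitted across all 24 libraries with edgeR's quasi-likelihood method. DEGs (differentially expressed genes) needed an adjusted p no higher than 0.05 and a log2 fold change (log2FC) of 0.66 or more in either direction, a limit raised to 1 for comparisons of one SE group with another. The 10 genes did not move as a block. At 12 h after SE, 3 of the 10 were DEGs against Ctr 12 h (1 higher, 2 lower), where 25.2% of all genes tested were called (13.9% higher, 11.4% lower). At 36 h 8 were DEGs against Ctr 36 h (3 higher, 5 lower), with 21.6% of all genes called (12.7% higher, 8.91% lower), and at 72 h 4 against Ctr 72 h, all higher, with 19.4% called (15.2% higher). Without a Ctr group of their own, the SE 6 h and SE 24 h groups were compared with the mean of the 3 Ctr groups, so these comparisons share their controls with the others. None of the 10 was a DEG at 6 h by edgeR, DESeq2 or limma-voom (22% of all genes were called), although 4 had an unadjusted p under 0.05. These 4, Slc1a3, Aqp4, Gja1 and Aldh1l1, also passed the adjusted p in edgeR and missed only the log2FC threshold. At 24 h 7 were DEGs (1 higher, 6 lower), where 24.1% of all genes were called (14.9% higher, 9.21% lower). For the 10 genes together the median log2FC was 0.07 (6 h), -0.42 (12 h), -0.83 (24 h), -0.70 (36 h) and 0.47 (72 h), beside medians over all genes from 0 to 0.1. The 6 genes Slc1a2, Slc1a3, Glul, Gja1, Gjb6 and Aldoc were DEGs below the controls at 24 h and were not DEGs at 72 h, and the other four were DEGs above the controls at 72 h.

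**Figure D1:**
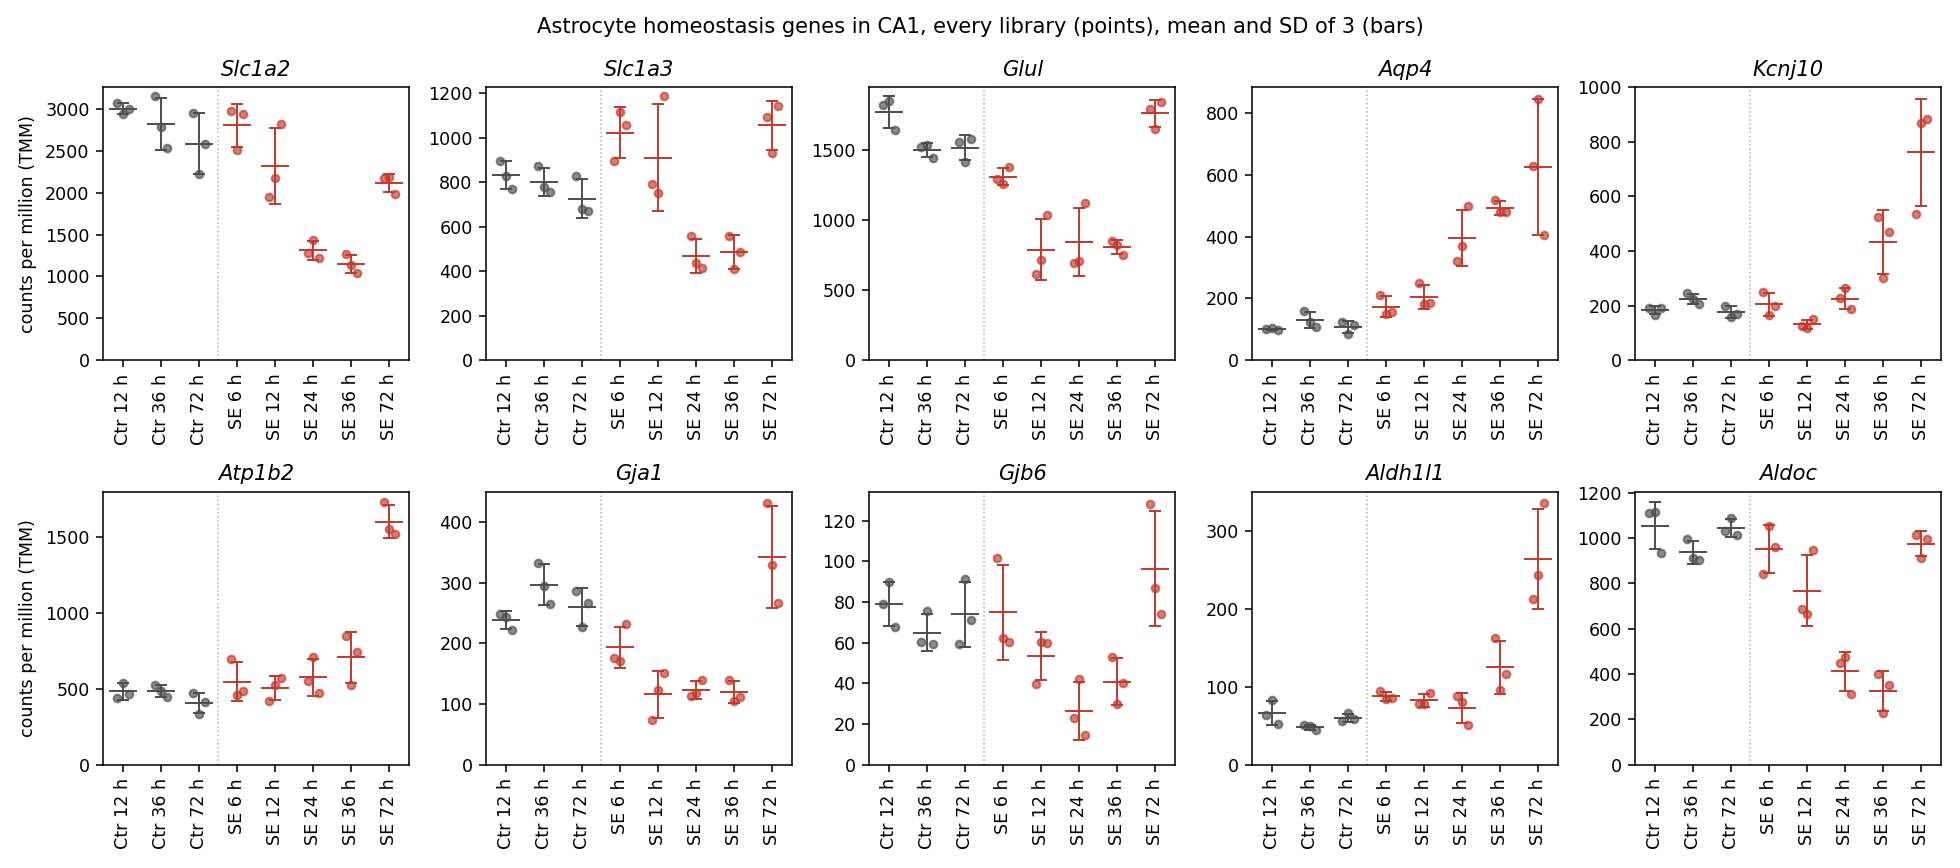
Level of each gene in every library, in TMM-normalized CPM on an axis from 0, with the 3 Ctr groups in grey and the 5 SE groups in red; points are libraries and bars the mean and SD of 3. Slc1a2 lies at 1310 ± 111 CPM at 24 h against 2805 ± 303 over the 9 Ctr libraries, while Aqp4 lies at 396 ± 92.2 against 112 ± 21.8.

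Among the genes of glutamate uptake and recycling, Glul was a DEG already at 12 h, the first time with a DEG in the set. At 6 h it was 1293, 1261 and 1381 CPM, below all 9 Ctr libraries (1414 to 1852 CPM). The log2FC of -0.28 was not called there (edgeR's quasi-likelihood test, adjusted p = 0.113). At 12 h its level was 616, 717 and 1039 CPM after SE and 1824, 1852 and 1646 CPM in Ctr, with no overlap. This was a log2FC of -1.17 (s.e. 0.17, edgeR's quasi-likelihood test, adjusted p = 2.58e-05). At 24 h it was 696, 711 and 1126 CPM, below all 9 Ctr libraries (1414 to 1852 CPM), with a log2FC of -0.92 (s.e. 0.14, adjusted p = 4.17e-05). The SE 36 h libraries, at 848, 821 and 754 CPM, were also all below Ctr 36 h (1525, 1535 and 1444 CPM; log2FC -0.90, s.e. 0.17, adjusted p = 0.000377). By 72 h Glul was at 1799, 1655 and 1843 CPM. These were above the Ctr 72 h libraries (1563, 1414 and 1582 CPM), yet the difference was not called (log2FC 0.21, 95% interval -0.13 to 0.56, adjusted p = 0.365).

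Slc1a2, the main glutamate transporter of the adult forebrain, was a DEG from 24 h on and no longer at 72 h. At 6 h its level was 2973, 2507 and 2939 CPM, within the range of the 9 Ctr libraries (2223 to 3155 CPM; log2FC 0.01, 95% interval -0.22 to 0.23). At 12 h it was 1954, 2174 and 2824 CPM against 3071, 2939 and 2996 CPM in Ctr. All SE libraries were lower, with an adjusted p of 0.0268, but the log2FC of -0.38 was short of the threshold. By 24 h the libraries read 1276, 1435 and 1221 CPM (log2FC -1.09, s.e. 0.11, adjusted p = 2.27e-07). It stayed low at 36 h with 1266, 1137 and 1044 CPM against 3155, 2787 and 2530 CPM in Ctr, a log2FC of -1.30 (s.e. 0.13, adjusted p = 3.65e-07). At 72 h Slc1a2 was 2170, 2192 and 1988 CPM against 2957, 2223 and 2586 CPM in Ctr. All 3 SE libraries were still below the controls, with a log2FC of -0.29 (95% interval -0.56 to -0.02) that was not called (adjusted p = 0.107).

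Slc1a3, the other transporter, is known to be high in immature glia as well. At 6 h it was 895, 1117 and 1055 CPM, above all 9 Ctr libraries (671 to 895 CPM), the lowest of them only just, with a log2FC of 0.38 (s.e. 0.13, adjusted p = 0.0265) below the threshold for a DEG. At 12 h its range (749 to 1186 CPM) overlapped that of Ctr 12 h (770 to 895 CPM). At 24 h it was 556, 437 and 411 CPM, lower than every Ctr library (log2FC -0.74, s.e. 0.14, adjusted p = 0.000291). At 36 h it was 559, 409 and 487 CPM against 873, 776 and 754 CPM (log2FC -0.72, s.e. 0.17, adjusted p = 0.00219). That call was the least stable of the 36 h calls, as the log2FC was -0.62 without SE 36 h replicate 2, -0.60 with library size as the only scaling, and -0.66 after rounding, just short of the threshold, without Ctr 36 h replicate 1 or with a filter of 10 counts in every library. At 72 h it was 1092, 930 and 1142 CPM against 826, 681 and 671 CPM, higher in all 3 libraries with a log2FC of 0.54 (adjusted p = 0.0202) that did not reach 0.66.

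Because both transporters were counted in the same libraries, their ratio does not depend on the scaling between libraries. Per exon base, Slc1a2 was 3.72 ± 0.216 times Slc1a3 in the 9 Ctr libraries (range 3.41 to 4.06). After SE the ratio averaged 2.9 ± 0.561 (6 h), 2.69 ± 0.294 (12 h), 2.97 ± 0.529 (24 h), 2.5 ± 0.354 (36 h) and 2.12 ± 0.323 (72 h; SD, n = 3 each). At 12, 36 and 72 h no SE library overlapped a Ctr library, whereas the highest values at 6 h (3.46) and 24 h (3.43) lay just inside the Ctr range. This ratio and the others below were chosen with the values known and are given without a test.

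**Figure D2:**
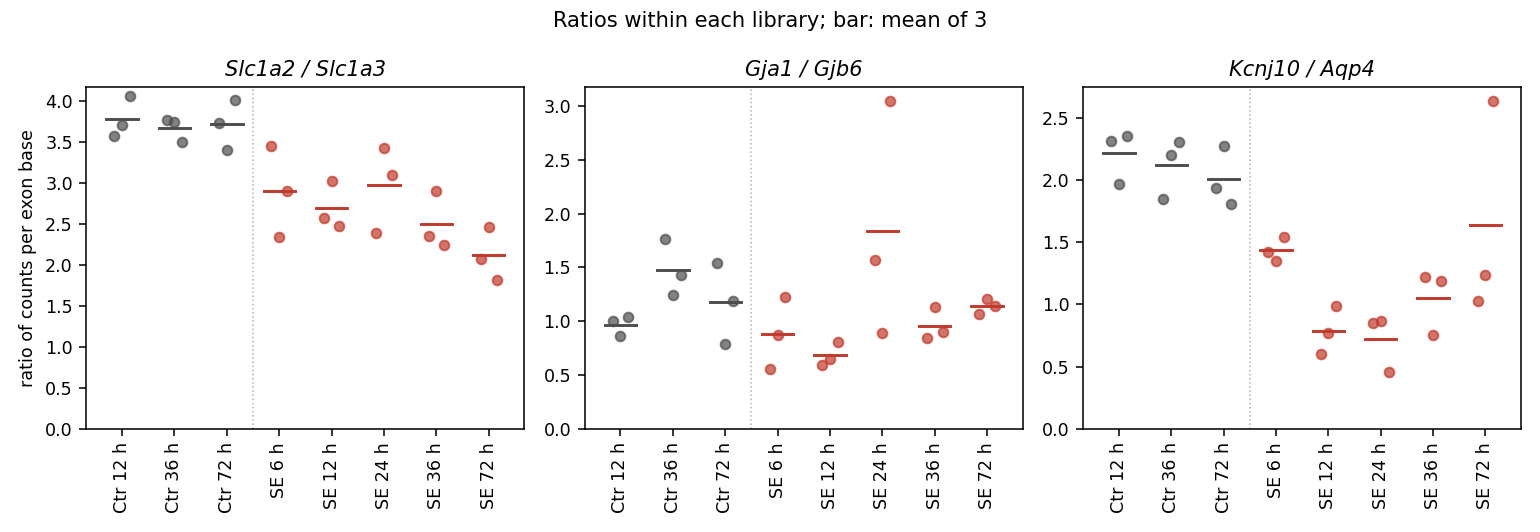
Ratio of counts per exon base of 2 genes within each library, on an axis from 0, in Ctr groups (grey) and SE groups (red); points are libraries and bars the mean of 3. The Slc1a2 to Slc1a3 ratio averages 3.72 in Ctr and 2.12 at 72 h after SE, and the Kcnj10 to Aqp4 ratio 2.12 in Ctr and 0.788 at 12 h after SE.

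Aqp4, the water channel (chromosome 18, 15522451 to 15544039), was the only member that was a DEG above Ctr at 12 h, and it was one at each later time. At 6 h it was 211, 148 and 157 CPM, of which 2 of 3 libraries were inside the range of the 9 Ctr libraries (84.1 to 160 CPM; log2FC 0.63, s.e. 0.18, adjusted p = 0.00825, under the threshold for a DEG). At 12 h the SE libraries held 250, 181 and 185 CPM and the Ctr libraries 99.5, 102 and 98.5 CPM (log2FC 1.04, s.e. 0.23, adjusted p = 0.00127). In the SE 24 h libraries 321, 369 and 499 CPM were measured, giving a log2FC of 1.83 (s.e. 0.17, adjusted p = 4.36e-08). At 36 h, 520, 479 and 480 CPM stood against 160, 122 and 108 CPM (log2FC 1.92, s.e. 0.23, adjusted p = 2.95e-06). At 72 h the SE libraries spread from 404 to 846 CPM (628, 846 and 404 CPM) and the Ctr libraries from 84.1 to 124 CPM, with no overlap. The log2FC was 2.56 (s.e. 0.24, adjusted p = 1.46e-07). It was 1.77 without the libraries that carried sensory ganglion transcripts, which are described below. These included the higher 2 of the SE 72 h libraries, so that SE 72 h replicate 3 alone was left in its group.

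Kcnj10, the potassium channel, was a DEG at 36 and 72 h. At 12 h it was 125, 116 and 151 CPM, below the 191, 166 and 192 CPM of Ctr 12 h, with a log2FC of -0.49 that did not pass the test (95% interval -0.92 to -0.06, adjusted p = 0.0643). At 24 h it was 226, 264 and 187 CPM, within or just above the Ctr range (158 to 245 CPM). At 36 h it was higher, at 524, 300 and 471 CPM against 245, 223 and 206 CPM (log2FC 0.94, s.e. 0.21, adjusted p = 0.00143). At 72 h it was 536, 868 and 883 CPM against 199, 158 and 168 CPM, with a log2FC of 2.12 (s.e. 0.21, adjusted p = 3.73e-07). The ratio of Kcnj10 to Aqp4 per exon base was 2.12 ± 0.221 in Ctr (n = 9) and lay below all Ctr libraries at 6 h (1.44 ± 0.0935), 12 h (0.788 ± 0.192), 24 h and 36 h. It averaged 0.724 ± 0.233 at 24 h, 1.05 ± 0.258 at 36 h and 1.64 ± 0.876 at 72 h, where 1 library, SE 72 h replicate 3, had a value of 2.64, above the Ctr range.

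Atp1b2, the pump subunit, was a DEG at 72 h alone, with a log2FC of 0.27, 0.06 and 0.34 for 6, 12 and 24 h. At 36 h it was 851, 524 and 744 CPM against 526, 482 and 443 CPM, with an adjusted p of 0.0287 and a log2FC of 0.55 under the threshold. Without SE 36 h replicate 2, the lowest of these, the log2FC was 0.72 and was called. At 72 h it was 1727, 1555 and 1521 CPM against 469, 334 and 413 CPM, a log2FC of 1.99 (s.e. 0.19, adjusted p = 2e-07). Its 3 SE 72 h libraries lay close together (1601 ± 110.5 CPM).

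**Figure D3:**
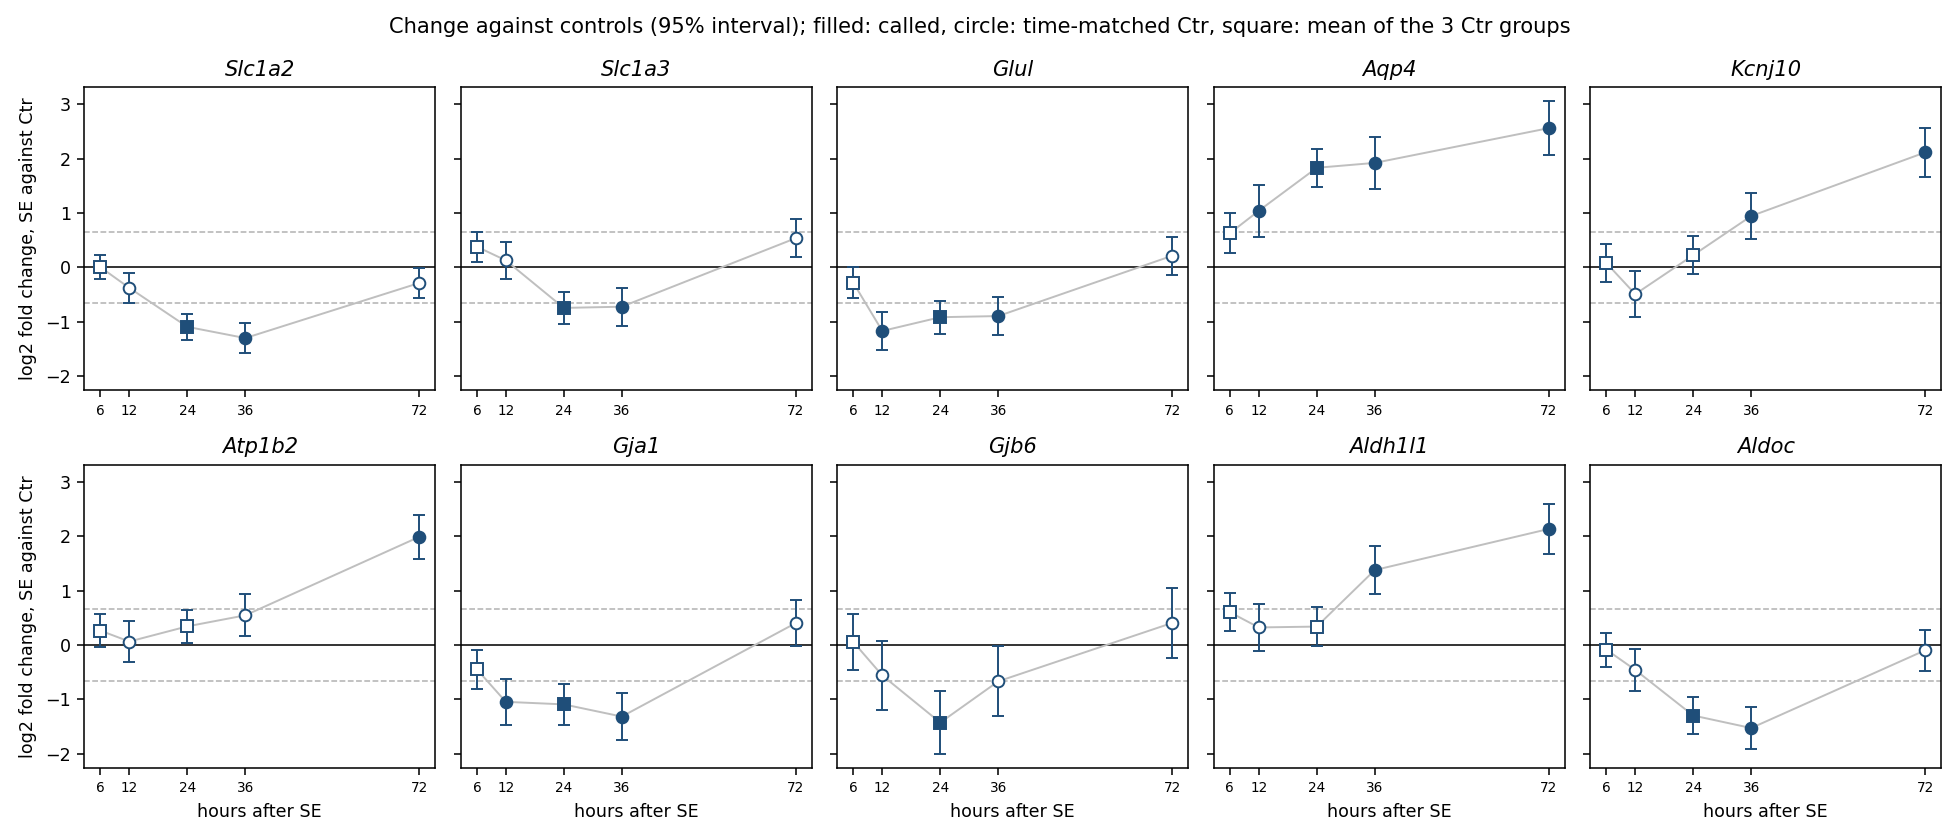
Log2 fold change of each gene after SE against controls (vertical axis) by hours after SE (horizontal axis), with 95% intervals; circles use the time-matched Ctr group, squares the mean of the 3 Ctr groups, filled symbols are DEGs, and dashed lines mark 0.66 in either direction. Aqp4 goes from 0.63 at 6 h to 2.56 at 72 h, while Aldoc goes to -1.53 at 36 h and -0.10 at 72 h.

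Of the gap junction genes, Gja1 was a DEG below the controls from 12 to 36 h and Gjb6 at 24 h against the mean of the 3 Ctr groups, and neither was one at 72 h. Gja1 was 176, 171 and 232 CPM at 6 h (log2FC -0.45, adjusted p = 0.0426, under the threshold). At 12 h it was 74.3, 122 and 151 CPM against 249, 244 and 221 CPM, with no overlap and a log2FC of -1.04 (s.e. 0.20, adjusted p = 0.000525). It was 112, 118 and 140 CPM at 24 h (log2FC -1.09, s.e. 0.18, adjusted p = 5.95e-05) and 140, 105 and 112 CPM at 36 h against 332, 294 and 265 CPM (log2FC -1.32, s.e. 0.21, adjusted p = 6.18e-05). At 72 h its level of 432, 329 and 266 CPM overlapped that of Ctr (287, 226 and 266 CPM; log2FC 0.40, 95% interval -0.02 to 0.83). Gjb6 at 24 h was 22.7, 42.2 and 14.6 CPM, below all 9 Ctr libraries (59.1 to 91.2 CPM), with a log2FC of -1.43 (s.e. 0.28, adjusted p = 0.00034). It was not a DEG at 12 h (log2FC -0.56) or at 36 h (log2FC -0.67, 95% interval -1.31 to -0.03, adjusted p = 0.106), although all 3 SE libraries lay below Ctr at both times. With the reference used at 24 h, the mean of the 3 Ctr groups, Gjb6 was called at 36 h too (-0.82, adjusted p = 0.0184). It was also called there without the libraries with ganglion transcripts (-0.67, adjusted p = 0.0408) and without Ctr 72 h replicate 2 (-0.68), a library outside the comparison that enters the shared fit. The ratio of Gja1 to Gjb6 varied widely in Ctr (0.79 to 1.76) and its SE range (0.552 to 3.05) covered that of the controls.

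Of the metabolic genes, Aldoc was a DEG below the controls at 24 and 36 h. It was 688, 667 and 947 CPM at 12 h against 1111, 1116 and 935 CPM, an overlap with a log2FC of -0.46 (adjusted p = 0.053). At 24 h it was 449, 473 and 311 CPM (log2FC -1.30, s.e. 0.16, adjusted p = 2.54e-06), and at 36 h 399, 227 and 349 CPM against 997, 912 and 903 CPM (log2FC -1.53, s.e. 0.19, adjusted p = 3.51e-06). At 72 h it was 1016, 911 and 997 CPM, beside 1030, 1087 and 1014 CPM in Ctr (log2FC -0.10, 95% interval -0.48 to 0.28). Aldh1l1 went the other way. It was 93.9, 83.9 and 84.9 CPM at 6 h, above the 9 Ctr libraries (44.5 to 82.6 CPM), though the log2FC of 0.60 (adjusted p = 0.00708) was under the threshold. At 12 and 24 h its estimates were 0.32 and 0.34 and not called. At 36 h it was 162, 96.1 and 116 CPM against 50.3, 49.2 and 44.5 CPM (log2FC 1.38, s.e. 0.21, adjusted p = 5.45e-05), and at 72 h 212, 244 and 336 CPM against 56.0, 66 and 58.5 CPM (log2FC 2.13, s.e. 0.22, adjusted p = 5.38e-07). The members used as pan-astrocyte markers thus did not change alike, as Aldh1l1 was higher and Aldoc lower than Ctr at 36 h.

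Counted by single libraries, SE and Ctr did not overlap in 6 of the 10 genes at 12 h (1 above, 5 below), 9 at 36 h (3 above, 6 below) and 7 at 72 h (6 above, 1 below). Over all genes tested, SE and Ctr did not overlap in 47.7%, 51.9% and 32.8%, in the same order of time.

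Consecutive SE groups were compared to see when the levels turned. Between 6 and 12 h none of the 10 was a DEG by edgeR, DESeq2 or limma-voom (4 had an unadjusted p under 0.05), and 1.34% of all genes were called. Of the 10 estimates 9 were below 0. Glul (log2FC -0.73, adjusted p = 0.0173) and Gja1 (-0.75, adjusted p = 0.0409, edgeR's quasi-likelihood test) passed the adjusted p but not the threshold of 1. Between 12 and 24 h only Gjb6 was called (log2FC -1.003, s.e. 0.31, adjusted p = 0.0482), where 3.18% of all genes were called (1.72% lower). The Gjb6 call was lost when either replicate 3 was omitted, that of SE 12 h or that of SE 24 h, which left 0 members called. Leaving out SE 12 h replicate 1 gave 3, and leaving out SE 24 h replicate 1 or 2 gave 2. Under the fold threshold of 1, the differences of Slc1a2 (-0.82), Slc1a3 (-0.96), Aldoc (-0.90), Aqp4 (0.95) and Kcnj10 (0.79) were past the adjusted p in this step and not called. Between 24 and 36 h none was called by any of the 3 tools (2 had an unadjusted p under 0.05), with 0.529% of all genes called. Kcnj10 had a log2FC of 0.935 (adjusted p = 0.0394), under the threshold of 1. Omitting replicate 2 of either group gave 1 called member in that step. The step from 36 to 72 h differed: 7 of the 10 were higher at 72 h and none lower, against 3.08% of all genes called higher and 4.13% either way. They were Aldoc (log2FC 1.58, s.e. 0.19, adjusted p = 3.29e-05), Gja1 (1.53), Gjb6 (1.23), Atp1b2 (1.18), Glul (1.13), Slc1a3 (1.12) and Aldh1l1 (1.08). For the other three, the estimates were 0.885 for Slc1a2, 0.82 for Kcnj10 and 0.35 for Aqp4.

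The SE effect at one time was also tested against that at another, each relative to its own controls. From 36 to 72 h the effect moved up in 7 genes, against 4.81% of all genes called either way (3.69% higher). The largest difference was that of Gja1 (1.72, s.e. 0.29, adjusted p = 0.00315), and the others were Atp1b2, Aldoc, Slc1a3, Kcnj10, Glul and Slc1a2. From 12 to 72 h it moved up in 6, with 18.6% of all genes called (12.3% higher), and the largest was Kcnj10 (2.61, s.e. 0.30, adjusted p = 1.19e-05). From 12 to 36 h it moved down in Slc1a2, Slc1a3 and Aldoc and up in Kcnj10, with 3.38% of all genes called (2% higher, 1.38% lower). That count was 2 without SE 12 h replicate 3 or without any one of the Ctr 36 h libraries. Aldh1l1 moved up as well (1.05) but was just short of a call (adjusted p = 0.0511, edgeR's quasi-likelihood test), whereas DESeq2 called it. Between Ctr groups none of the 10 was a DEG by any of the 3 tools. Over all genes, 0% were called between 12 and 36 h, 0.931% between 12 and 72 h and 1.96% between 36 and 72 h, and of the 10 members 1, 0 and 0 had an unadjusted p under 0.05.

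Some technical values moved with these groups. The label numbers of the libraries fall in 3 ranges, 92 to 104, 109 to 122 and 162 to 169, whose meaning is not given in the sources used here. All Ctr 72 h libraries were in the highest range and no SE 72 h library was, so at 72 h range and SE cannot be told apart within the time point. All SE 24 h libraries were in the lowest range and no Ctr library was, so the 7 calls at 24 h also set different ranges against each other. With the range in the fit in place of the RUVr factor, 0 of the 10 were called different in SE effect between 36 and 72 h. The 7 genes called in the main fit had estimates of 0.81 to 1.26 there, in place of 1.01 to 1.72. The 4 calls at 72 h, the 8 at 36 h and the 7 between SE 36 h and SE 72 h were as many as before. At 36 h a comparison within the range 109 to 122 (SE 36 h replicates 1 and 2 against all Ctr 36 h libraries) also gave 8 calls (3 higher, 5 lower). In 6 libraries there were over 100 CPM of transcripts typical of sensory ganglia: SE 6 h replicate 3, SE 12 h replicate 1, SE 36 h replicate 3, SE 72 h replicates 1 and 2, and Ctr 72 h replicate 2 (266 to 1423 CPM summed over 10 markers, against 2.88 to 58.1 CPM in the other 18 libraries). Without these libraries the counts of called members were 3 and 9 against Ctr at 12 and 36 h, and 7 at 24 h. Of the SE 72 h libraries only replicate 3 was then left, beside Ctr 72 h replicates 1 and 3. For comparisons with 72 h only estimates are therefore given. The difference between the 36 and 72 h effects was 0.75 for Slc1a2, 1.33 for Slc1a3, 1.39 for Kcnj10 and 1.55 for Aldoc. With all libraries these were 1.01, 1.26, 1.17 and 1.43. Gja1 at 72 h then had a log2FC of -0.06.

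Across the 24 libraries the set split in the same way. The correlation of log2 CPM was highest for Glul with Gja1 (Pearson r = 0.92), Slc1a2 with Aldoc (0.91) and Atp1b2 with Aldh1l1 (0.89). The 15 pairs among Slc1a2, Slc1a3, Glul, Gja1, Gjb6 and Aldoc had r from 0.56 to 0.92, and the 6 pairs among Kcnj10, Atp1b2, Aldh1l1 and Aqp4 from 0.71 to 0.89. The lowest value was that of Slc1a2 with Aqp4 (-0.72). These are descriptions over libraries that share groups and scaling.

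**Figure D4:**
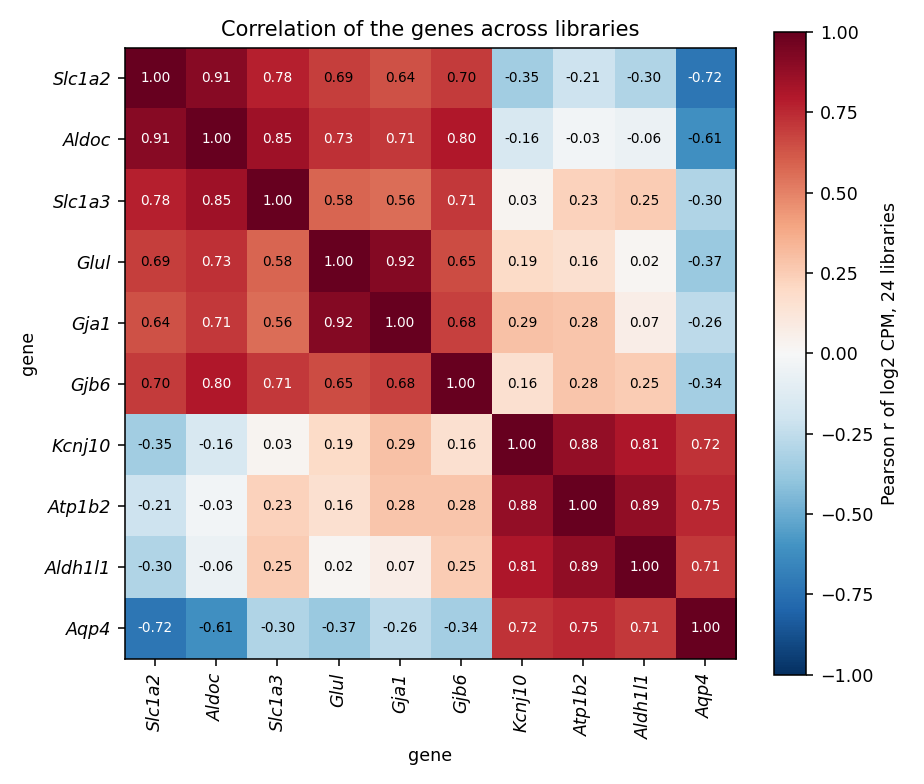
Pearson correlation of log2 CPM between the 10 genes over 24 libraries, with genes on both axes and red for positive and blue for negative values. The block of 6 genes at the upper left holds values from 0.56 to 0.92, the block of 4 at the lower right from 0.71 to 0.89, and Slc1a2 with Aqp4 is at -0.72.

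The mean standardised profile of the 10 members over the 24 libraries was compared with 13740 other genes whose log2 CPM averaged 1 or more. That mean stands for some members more than others, since r with the mean of the other members was from -0.07 for Aqp4 and 0.37 for Slc1a2 to 0.72 for Gja1 and Gjb6. The closest genes were Scrg1 (Pearson r = 0.924), Ptprz1 (0.914), Daam2 (0.913), Gpr37l1 (0.911), Gm2a (0.909), Sfxn5 (0.902), Spag5, a neighbour of Aldoc (0.889), and Slco1c1 (0.882). For single members, the nearest was Bcan for Slc1a2 (0.953), Epas1 for Slc1a3 (0.883), Gm6145 for Glul (0.897) and Klk6 for Aqp4 (0.95). It was Rnase4 for Kcnj10 (0.934), Plpp3 for Gja1 (0.912), Chpt1 for Gjb6 (0.909) and Gstm1 for Aldoc (0.968). Igfbp2 was nearest to both Atp1b2 (0.959) and Aldh1l1 (0.942).

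Genes that work beside the members were counted from lists set by function. Of 10 other genes of amino acid transport and glutamate metabolism, 5 were lower and none higher at 12 h, led by Prodh, which degrades proline (log2FC -1.77), Gldc, a glycine cleavage enzyme (-1.10), Slc7a10 (-1.08) and the GABA transporter Slc6a11 (-0.99). At 24 h 8 of the 10 were lower, led by Slc6a11 (-2.56) and Prodh (-2.45), and at 36 h 5 were, led by the same pair (-2.45 and -2.19). At 72 h 4 were higher and 1 lower. The glutamine transporter Slc38a3 (1.58) and the mitochondrial glutamate carrier Slc25a18 (1.28) rose, whereas Slc6a11 was still lower (-0.95). Over the list the median log2FC was -0.70 (12 h), -0.96 (24 h), -0.62 (36 h) and 0.20 (72 h).

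Of 7 other genes of ion transport, 1 was higher and 2 lower at 12 h, namely the cation channel Trpv4 (log2FC 2.10), the chloride channel Clcn2 (-1.41) and the bicarbonate transporter Slc4a4 (-1.06). At 72 h 2 were higher and none lower, namely Fxyd1, a regulator of the sodium pump (1.72), and Slc4a4 (1.05). Of 8 genes of the endfoot and of junctions, 2 were lower at 12 h, Cldn10 (-1.79) and Hepacam, an adhesion molecule of astrocytes (-0.73), and 1 at 36 h, Cldn10 (-1.95). At 72 h 4 were higher and 1 lower, with Hepacam at 1.21, Lama2 at 1.02 and Cldn10 at -1.07. Of 12 further genes of astrocyte identity and metabolism, 3 rose and 4 fell at 12 h, 5 rose and 4 fell at 36 h, and 7 rose and 1 fell at 72 h. The urea transporter Slc14a1 was higher at all 3 times (2.53, 1.93 and 2.32), and the Notch target Hes5 was lower at 12 h (-3.25) and 36 h (-4.33).

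Markers of reactive astrocytes and of other cells were counted too, beside the same shares of all genes. Some of these counts lay near the share, such as 1 of 8 neuron markers lower at 12 h (11.4% lower over all genes). All 10 reactive astrocyte genes were DEGs above Ctr at 12 and 72 h and 9 of 10 at 36 h. Their summed level was 352 to 752 CPM in the Ctr libraries and rose from 1813 to 2931 CPM at 6 h up to 11823 to 13940 CPM at 72 h, so it was high already while Slc1a2, Glul and Gja1 were low. The summed level of the 10 members was 6364 to 8020 CPM in Ctr, 4297 to 4635 CPM at 24 h and 9454 to 9741 CPM at 72 h. Of 8 neuron markers, 1, 2 and 2 were lower at 12, 36 and 72 h and none higher, and their sum was 5845 to 6242 CPM at 72 h against 8111 to 8991 CPM in Ctr 72 h. Of 7 microglia markers, 2 were DEGs below Ctr at 12 h, 4 were above and 1 below at 36 h, and all 7 were above at 72 h (summed 1202 to 1750 CPM against 294 to 391.8 CPM). Of 6 endothelial markers 4, 2 and 2 were higher at 12, 36 and 72 h, and of 6 oligodendrocyte markers 0, 0 and 2, with sums of 286 to 297 CPM (endothelial, Ctr 72 h 187 to 235 CPM) and 2472 to 6615 CPM (oligodendrocyte, Ctr 72 h 2358 to 4262 CPM) at 72 h. Against the mean of the Ctr groups, 4 endothelial markers were higher and 1 lower at 6 h, and 4 were higher at 24 h. Of the oligodendrocyte markers 3 were higher at both times. Of the microglia markers 5 were lower at 6 h, and 2 were higher and 1 lower at 24 h. At 6 h the oligodendrocyte sum (5353 to 5630 CPM) lay above all Ctr libraries (2358 to 4262 CPM), and at 24 h it spread from 2829 to 6507 CPM. The tissue label was checked with 6 CA1 pyramidal markers, whose sum was 752 to 1463 CPM in Ctr and 311 to 899.5 CPM after SE, beside 7.67 to 241 CPM for 5 dentate granule markers over all libraries. Of the CA1 markers 1, 3 and 2 were lower at 12, 36 and 72 h, and of the dentate markers 0, 1 and 3 were higher. In SE 72 h replicate 1, which also carried ganglion transcripts, the CA1 sum was lowest (311 CPM) and the dentate sum highest (241 CPM), whereas SE 72 h replicates 2 and 3 had 643 and 692.5 CPM of CA1 markers and 21.2 and 31.8 CPM of dentate markers. Without replicate 1 the members called at 72 h were 4 as well. No neuron, microglia, endothelial or oligodendrocyte marker was at 0 in any library. The part of these shifts in the values of the 10 genes was not tested.

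**Figure D5:**
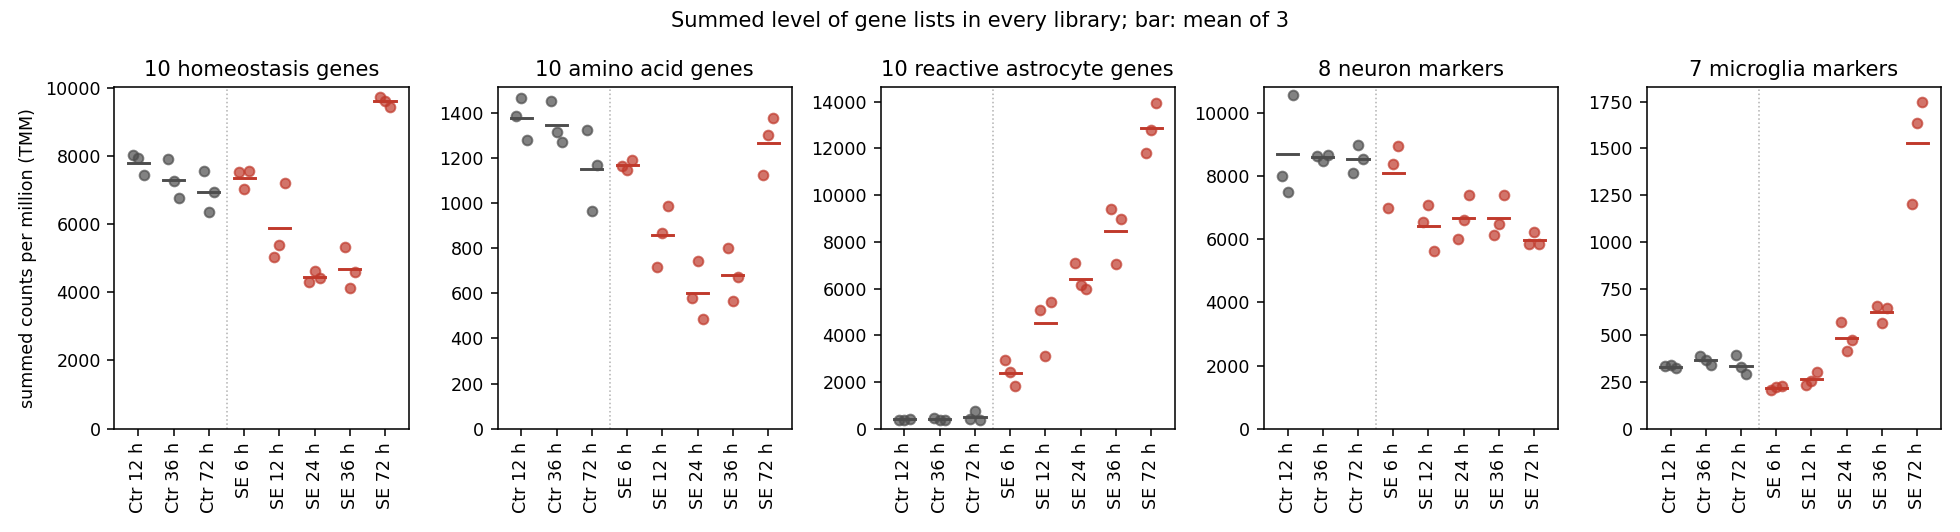
Summed TMM-normalized CPM of 5 gene lists in every library on axes from 0, with Ctr groups in grey and SE groups in red; points are libraries and bars the mean of 3. The 10 homeostasis genes lie at 4297 to 4635 CPM at 24 h and 9454 to 9741 CPM at 72 h, while the reactive astrocyte genes rise from group to group after SE up to 11823 to 13940 CPM.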

How the data were processed

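Per the labels and the study's methods, the authors trimmed paired-end reads with Trim Galore 0.6.6, aligned them with STAR 2.7.8a to GRCm39, sorted with SAMtools 1.10 and counted reads per GENCODE gene with HTSeq 0.13.5 without strand, and they deposited raw counts for 24 libraries. The annotation was GENCODE M26. Here, symbols and positions came from GENCODE M39 on GRCm39 (18552 of 18647 genes matched). With R 4.3.3 and edgeR 4.0.16, counts were TMM-normalized and filtered with filterByExpr (18153 genes, all 10 members included). A term per group and 1 RUVr factor were fitted over all 24 libraries, and genes were tested with the quasi-likelihood test and Benjamini-Hochberg adjustment over all genes tested. The RUVr factor mostly set Ctr 72 h replicate 2 (0.802), the library with most ganglion transcripts, apart from Ctr 72 h replicates 1 (-0.378) and 3 (-0.368). In the other groups it was from -0.098 to 0.14. Without this factor 4 members were called at 72 h as well. CPM use TMM library sizes, and correlations use log2 CPM with a prior count of 2. On simulated data for the 12 h comparison with 17710 genes tested, 180 of 200 genes changed at a log2FC of 1.5 were called, with 6 false calls. The changed genes were drawn from those with an expected count of at least 10 in every library. No other group difference, label range or ganglion transcripts were simulated, so these figures may not hold for the data themselves. Genes outside the set were named by size of change, at most 4 per list and comparison. A gene of a comparison list is not reported here. Members and lists were chosen with earlier results of these data known. Alternatives included DESeq2 1.42.0, limma-voom (limma 3.58.1), other scalings, filters and thresholds, the label range, counts thinned to 2663936 per library, and each library left out in turn. The fits with the label range, of the compared groups alone and within a single label range held no RUVr factor. Promoters came from the RefSeq table (GRCm38.p6).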

Additional observations from a re-analysis of the deposited data

Results flagged for a closer look

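The effect of SE on 9 of the 10 genes differed between time points in edgeR's quasi-likelihood test of the difference itself, and Gjb6 was not called. Its differences were -0.11 (12 to 36 h), 0.97 (12 to 72 h) and 1.07 (36 to 72 h), and the 12 to 72 h one was called without Ctr 72 h replicate 2 (1.06, adjusted p = 0.0449). Values are differences of log2FC, the later time minus the earlier. Over all genes, 3.38% were called from 12 to 36 h, 18.6% from 12 to 72 h and 4.81% from 36 to 72 h. The share of all genes called in any of these tests was not computed, so none stands beside the count of 9.

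From 12 to 36 h the difference was -0.92 for Slc1a2, -0.85 for Slc1a3, -1.07 for Aldoc and 1.44 for Kcnj10. That of Slc1a3 (adjusted p = 0.0454) was lost in each of the omissions of a 12 or 36 h library but those of SE 12 h replicates 1 and 2 (-0.62 to -0.97). It was also lost without the RUVr factor, with library size only, with the label range, with thinned counts, in a fit of the compared groups and without the ganglion libraries, at -0.76 to -0.93. That of Aldoc was lost without Ctr 12 h replicate 3, SE 12 h replicate 3 or any one Ctr 36 h library (adjusted p from 0.0571 to 0.0694). Aldh1l1 (1.05) was not called, but was with DESeq2, library size only or at least 10 counts in every library. It was also called without Ctr 12 h replicate 3, SE 36 h replicate 2 or Ctr 72 h replicate 2. Aqp4 (0.88), not called either, was called in a fit of the compared groups and without the ganglion libraries.

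From 12 to 72 h it was 1.38 for Glul, 1.52 for Aqp4, 2.61 for Kcnj10, 1.92 for Atp1b2, 1.45 for Gja1 and 1.81 for Aldh1l1. Without the 6 libraries with sensory ganglion transcripts, which left SE 72 h replicate 3 alone in its group, that of Aqp4 was 0.90. With a term for the label number range, that of Gja1 was 1.03 and was not called.

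From 36 to 72 h it was 1.01 for Slc1a2, 1.26 for Slc1a3, 1.11 for Glul, 1.17 for Kcnj10, 1.44 for Atp1b2, 1.72 for Gja1 and 1.43 for Aldoc. In a fit with a term for the label number range, none of these 7 was called and the estimates were 0.81 to 1.26. Without the ganglion libraries SE 72 h replicate 3 alone was left in its group. The estimates were then 0.75 for Slc1a2, 1.33 for Slc1a3, 1.39 for Kcnj10 and 1.55 for Aldoc. The call of Kcnj10 was lost without replicate 1 or 2 of Ctr 36 h or replicate 2 of SE 36 h. Leaving out Ctr 72 h replicate 2 or SE 72 h replicate 2 or 3 also lost it (0.97 to 1.18 in all of these).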

How the results depend on the processing

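Of 1810 values of single genes under the alternatives, 1741 were called or not called as before, 46 lost the call and 23 gained it. Of the called ones 0 changed sign. Some estimates that were not called did change sign, as given below for Glul, Gja1 and Gjb6. The counts of called members that changed most in proportion are given first, and examples of smaller changes after them. At an absolute log2FC of at least 1, 5 members were called at 36 h and 2 for the difference between the 12 and 36 h effects. At 6 h there were 4 without a log2FC threshold, 1 with at least 10 counts in every library, and 2 with the label range. Between 6 and 12 h after SE there were 2 at 0.66 and 2 without a threshold. Between 12 and 24 h there were 6 at 0.66 and 6 without one, 0 without the RUVr factor, 0 with library size only, 0 with thinned counts, 0 in a fit of the compared groups, 2 with the label range and 3 without the ganglion libraries. Between 24 and 36 h there was 1 at 0.66, 1 without a threshold and 1 with library size only. The omission of the ganglion libraries was chosen after seeing the data. The difference between the 36 and 72 h effects gave 0 with the label range. Smaller changes included 5 members at 24 h at an absolute log2FC of at least 1. Without a log2FC threshold there were 4 at 12 h, 9 at 36 h and 5 at 72 h. At 0.66 the step from 36 to 72 h gave 9. The difference between the 12 and 72 h effects gave 5 with the label range. That between the 12 and 36 h effects gave 3 without the RUVr factor and 5 with DESeq2. The cause of these changes was not tested.

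Leaving out each library in turn gave 3 to 3 members at 12 h, 7 to 9 at 36 h, 4 to 4 at 72 h, 0 to 2 at 6 h, 7 to 7 at 24 h, 0 to 0, 0 to 3, 0 to 1 and 5 to 7 for the successive SE steps, and 2 to 5, 6 to 7 and 6 to 7 for the differences of 36 and 12, 72 and 12, and 72 and 36 h. At 6 h a member was called without SE 6 h replicate 2 or 3, Ctr 36 h replicate 1 or Ctr 72 h replicate 1 (1 each), and 2 without Ctr 12 h replicate 2. The uncalled 72 h estimates of Glul, Gja1 and Gjb6 became -0.10, -0.09 and -0.12 with the label range.

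Replicate numbers were not taken as pairs. After the group mean of each gene was removed, same-numbered SE and Ctr libraries correlated from -0.20 to 0.18 in 9 pairs, 4 of them over 0.1. Differently numbered libraries were not compared with these, so the values cannot show whether the numbers pair the libraries. The fit with the replicate block gave 3, 8, 4, 0 and 7 members at 12, 36, 72, 6 and 24 h, as without it. Ctr 72 h replicates 2 and 3 were the shallowest libraries, and counts thinned to the depth of replicate 3 gave 4 calls at 72 h as well.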
